A study of Mus musculus with 2 samples.

Results

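The genes of endothelin, adrenomedullin and apelin signalling were followed in RNA-seq of polyadenylated RNA from whole lung of 1 adult female C57BL/6J mouse aged 10 weeks. They are 10 genes chosen by symbol from 43346 genes in the deposited tables: the ligands Edn1, Adm and Apln, the processing enzyme gene Ece1, the receptor genes Ednra, Ednrb, Calcrl and Aplnr, and the receptor accessory genes Ramp2 and Ramp3. There were 2 libraries of this tissue, labelled as technical replicates 2 and 1 of 1 biological replicate, and replicate 2 was made later. The labels give no treatment, mutation or other group, so the questions are how high these genes stood and how closely the libraries measured them. Every SD below is over n = 2 technical replicates, not over animals, and with 1 library on each side no p-value is given.

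These genes encode peptide hormones that set the tone and permeability of blood vessels. Endothelin-1 is cut from a larger precursor by the endothelin-converting enzyme. It contracts vascular smooth muscle through the receptor ETA (Ednra), while the receptor ETB (Ednrb) on endothelium relaxes vessels and removes endothelin from the blood passing through the lung. Adrenomedullin widens vessels and tightens the endothelial barrier through Calcrl, which reaches the cell surface with a small membrane protein of the RAMP family. Calcrl with Ramp2 or Ramp3 binds adrenomedullin, and with Ramp1 it binds the neuropeptide CGRP. Apelin acts through Aplnr on endothelium, and in mouse lung Apln and Ednrb are known markers of the alveolar capillary cells called aerocytes and Aplnr of general capillary cells.

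The ligands are short peptides inside longer precursors. The coding bases are shown because the processing steps that Ece1 and the amidating enzyme perform can be read from them (GENCODE release M21, GRCm38). For Edn1, capitals mark the cysteine and tryptophan codons of the 21-residue mature peptide, residues 53 to 73 of the precursor. A basic pair of codons precedes it, and the enzyme cuts after the tryptophan. For Adm, capitals mark the glycine codon that donates the terminal amide and the 5 basic codons after it. For Apln, capitals mark the last 13 codons of a precursor of 77 residues, which encode the shortest common active apelin.
Edn1 (chr13:42303643-42303714, plus strand): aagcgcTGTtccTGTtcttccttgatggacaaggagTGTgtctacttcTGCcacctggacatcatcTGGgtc
Adm (chr7:110629013-110629063, plus strand): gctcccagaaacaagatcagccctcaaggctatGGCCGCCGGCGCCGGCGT
Apln (chrX:48028302-48028346, minus strand): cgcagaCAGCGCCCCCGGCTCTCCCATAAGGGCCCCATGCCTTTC

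Rounded expected counts totalled 17110871 in replicate 2 and 16104423 in replicate 1, and 14096 genes in replicate 2 and 12131 genes in replicate 1 reached a TPM of 1 (a transcript abundance scaled to a fixed total, which allows for transcript length). Lung markers were present in both, though at different levels. All 6 listed epithelial markers reached a TPM of 1 in replicate 2 and 5 of 6 in replicate 1, the exception being Foxj1 at 42.8 TPM in replicate 2, against 0.11 TPM in replicate 1. The 6 epithelial markers summed to 223256 TPM in replicate 2, against 19655 TPM in replicate 1. Of them, 5 stood more than 2-fold higher in replicate 2 and 1 stayed inside 2-fold. Of 8 pan-endothelial markers, 8 reached a TPM of 1 in replicate 2 and 7 in replicate 1. Their sums were 1942 TPM in replicate 2, against 537 TPM in replicate 1. Of these 8, 4 stood more than 2-fold higher in replicate 2, 1 stood lower and 3 stayed inside that range. They ran from Cldn5, the highest ratio and the marker below 1, at 607 TPM in replicate 2 and 0.43 in replicate 1, to Tek, the lowest, at 75.0 and 170.7 TPM. Smooth muscle and pericyte markers summed to 982 and 95.9 TPM, general capillary markers to 788 and 209 TPM, and aerocyte markers to 761 and 607 TPM, in replicates 2 and 1. The capillary lists were mixed, with 2 of 4 markers higher, 1 lower and 1 inside 2-fold in each. Lymphatic markers, at 114 and 316 TPM, and fibroblast markers, at 352 and 755 TPM, summed lower in replicate 2. Both lists were mixed by the 2-fold threshold. Of 4 lymphatic markers 3 were lower and 1 higher, and of 4 fibroblast markers 2 were lower, 1 higher and 1 inside it. These markers moved with the library, and their part in the values below was not tested. By list, the median GC content of their transcripts was 56.4% for epithelial, 53.8% for smooth muscle and pericyte and 53.5% for pan-endothelial markers. It was 52.4% for general capillary, 52.0% for aerocyte, 49.4% for lymphatic and 49.3% for fibroblast markers. Whether GC content or cell content had a part in the marker differences was not tested. In whole tissue, fewer cells of a type and less RNA per cell cannot be told apart.

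Expression of all 10 genes was recorded in replicate 2 and of 9 in replicate 1, and 9 of 10 reached a TPM of 1 in both. Over all 43346 genes, 32.5% reached that level in replicate 2 and 28.0% in replicate 1. Summed over the 10 genes, expression was 1072 TPM in replicate 2, against 1716 TPM in replicate 1. The 4 adrenomedullin genes held most of it, with 898 TPM in replicate 2, against 1489 TPM in replicate 1. The 4 endothelin genes held 141 and 195 TPM, and the 2 apelin genes 32.5 and 31.9 TPM. Ordered by mean TPM, Calcrl came first, followed by Ramp2, Ednrb, Ece1, Ednra, Edn1, Apln, Aplnr, Adm and Ramp3. Of the 9 neighbouring pairs in this order, 7 had ranges over the libraries that overlapped. The ranges stood apart for Apln over Aplnr and for Adm over Ramp3. Of the 45 pairs among the 10 genes, 34 had the same order in both libraries and 11 the opposite order.

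**Figure D1:**
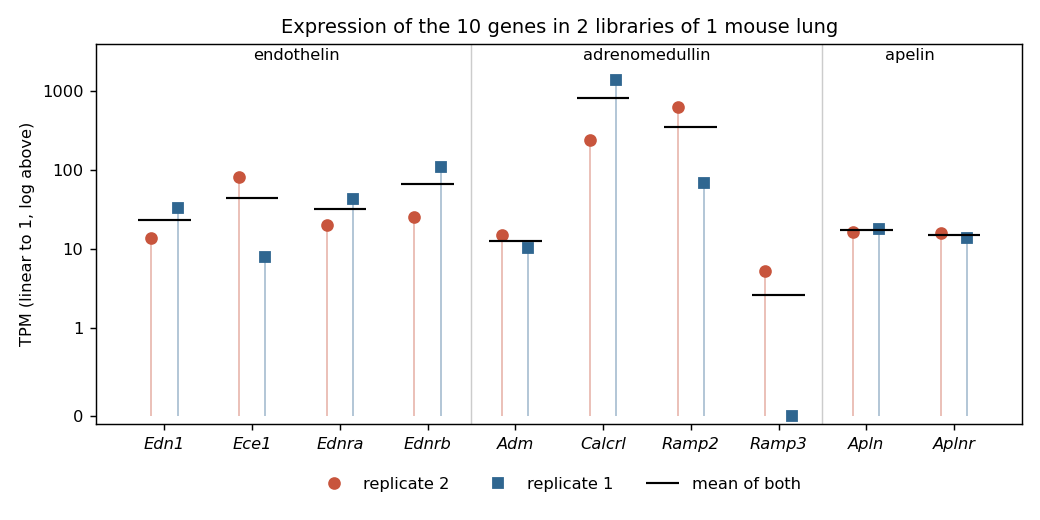
TPM of the 10 genes (linear to 1, logarithmic above) in replicate 2 (circles) and replicate 1 (squares) of 1 mouse lung, with the mean of both as a bar. Apln and Aplnr lie close together in the libraries, whereas Calcrl and Ramp2 change places, with Calcrl at 242 and Ramp2 at 636 TPM in replicate 2 and Calcrl at 1410 and Ramp2 at 68.9 TPM in replicate 1.

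Edn1 (ENSMUSG00000021367.7, chromosome 13, 42301476 to 42307990), the endothelin-1 precursor gene, was at 13.8 TPM in replicate 2, against 33.7 TPM in replicate 1, and its mean was 23.7 ± 14.1 TPM. It was higher than 67.9% of the genes above 0 in replicate 2 and 82.0% in replicate 1. Edn1 held most of the RNA of the endothelin ligands, with 59.5% of the summed TPM of Edn1, Edn2 and Edn3 in replicate 2 and 64.3% in replicate 1. Edn3, a ligand that prefers ETB, held nearly all the rest, at 9.27 TPM in replicate 2, against 18.6 TPM in replicate 1. Edn2 was close to absent, with 2 counts in replicate 2 and 1 count in replicate 1.

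Ece1 (ENSMUSG00000057530.10, chromosome 4, 137862237 to 137965229), the converting enzyme, was at 81.1 TPM in replicate 2, against 7.95 TPM in replicate 1, and its mean was 44.5 ± 51.7 TPM. In replicate 2 its TPM was 5.89 times that of Edn1, and in replicate 1 Edn1 was 4.24 times as high as Ece1. The libraries thus placed the enzyme and its substrate in opposite orders. Ece2, a related metalloprotease, was at 7.51 TPM in replicate 2, against 1.71 TPM in replicate 1.

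Ednrb (ENSMUSG00000022122.10, chromosome 14, 103814625 to 103844402) was at 25.9 TPM in replicate 2, against 109.6 TPM in replicate 1, and its mean was 67.7 ± 59.2 TPM. Ednra (ENSMUSG00000031616.7, chromosome 8, 77663031 to 77724464) was at 20.5 TPM in replicate 2, against 43.2 TPM in replicate 1, and its mean was 31.9 ± 16.0 TPM. The endothelial receptor was above the muscle receptor in both libraries, but by different margins. Ednrb held 55.7% of their summed TPM in replicate 2 and 71.7% in replicate 1, and its mean share was 63.7% ± 11.3.

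Adm (ENSMUSG00000030790.10, chromosome 7, 110627661 to 110629820), the adrenomedullin precursor gene, was at 14.9 TPM in replicate 2, against 10.5 TPM in replicate 1, and its mean was 12.7 ± 3.13 TPM. The ligand was low against its receptor chain: Calcrl was 16.2 times as high as Adm in replicate 2 and 134 times as high in replicate 1. Among the other ligands of the family, Calca, the CGRP precursor gene, was at 3.66 TPM in replicate 2, against 3.28 TPM in replicate 1. Calcb was at 0.96 and 1.11 TPM, and Adm2 and Iapp had at most 2 counts in either library.

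Calcrl (ENSMUSG00000059588.9, chromosome 2, 84330626 to 84425411) had the highest mean of the 10 genes, 826 ± 826 TPM. It ranked 447th of all genes in replicate 2, at 242 TPM, and 59th in replicate 1, at 1410 TPM. Calcr, the related calcitonin receptor gene, was at 0.11 TPM in replicate 2, against 0.54 TPM in replicate 1, so that Calcrl held nearly all TPM of the pair in both libraries.

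Ramp2 (ENSMUSG00000001240.9, chromosome 11, 101246028 to 101259546), which brings Calcrl to the surface as the adrenomedullin receptor, was at 636 TPM in replicate 2, against 68.9 TPM in replicate 1, and its mean was 352 ± 401 TPM. Ramp3 (ENSMUSG00000041046.7, chromosome 11, 6658521 to 6677475), its paralog, was at 5.29 TPM in replicate 2 and had 0 counts in replicate 1. A count of 0 allows up to 3 counts, which is 0.186 CPM there (counts scaled to library size). As a whole gene, Ramp2 held 94.6% of the summed TPM of Ramp1, Ramp2 and Ramp3 in replicate 2 and 97.3% in replicate 1. Ramp1 was at 30.7 TPM in replicate 2, against 1.92 TPM in replicate 1. In replicate 1, however, 61.6 of the 68.9 TPM of Ramp2 lay on a transcript with no annotated coding sequence. The Ramp2 transcript with the longest coding sequence was at 2.45 TPM there, and another coding transcript at 1.87 TPM, both near Ramp1. Which accessory chain led among RNA that can encode it was not tested. By gene total, the order of Ramp2 and its partner turned with the library. Ramp2 was 2.63 times as high as Calcrl in replicate 2, and Calcrl was 20.5 times as high as Ramp2 in replicate 1.

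The apelin genes differed least between the libraries. Apln (ENSMUSG00000037010.7, chromosome X, 48025146 to 48034853), the ligand gene, was at 16.5 TPM in replicate 2, against 18.0 TPM in replicate 1, and its mean was 17.3 ± 1.07 TPM. Aplnr (ENSMUSG00000044338.9, chromosome 2, 85136225 to 85139923), its receptor gene, was at 16.0 TPM in replicate 2, against 13.9 TPM in replicate 1, and its mean was 14.95 ± 1.51 TPM. Ligand and receptor thus stood at nearly the same level, with an Apln to Aplnr ratio of 1.03 in replicate 2 and 1.30 in replicate 1. Ackr3, an atypical receptor that also takes up adrenomedullin, was at 20.1 and 17.9 TPM, and Apela, the other ligand of Aplnr, had 1 count in replicate 2 and 5 counts in replicate 1.

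The only contrast in the data is replicate 2 over replicate 1, given here as a ratio of counts scaled with the TMM method. That method takes most genes to be equal between libraries, which the counts below do not bear out. Counting intervals at 95% cover counting error only. By a threshold of 2-fold, 3 of the 10 genes stood higher in replicate 2, 3 stood lower and 4 stayed inside it. These 6 of 10 compare with 67.5% of the 14139 genes whose TPM averaged 1 or more, 39.3% of them higher and 28.2% lower, so the share among the 10 genes was near the background. Their median log2 ratio was 0.09 with Ramp3 at its floor, against 0.19 over all genes tested.

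Ramp3 had 88 counts in replicate 2 and 0 in replicate 1, which makes it at least 23.0-fold higher at a floor of 3 counts per library. That bound holds at the floor only, and the exact 95% interval reaches lower, to 18.3-fold. Ramp2 had 7406 counts in replicate 2 and 464 in replicate 1, a 12.5-fold difference (11.4 to 13.8). Ece1 had 4796 and 412 counts and was 9.14-fold higher (8.26 to 10.1). The accessory chains and the converting enzyme were thus the genes that stood far higher in replicate 2.

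Calcrl had 14791 counts in replicate 2 and 61903 in replicate 1 and was 5.33-fold lower (5.24 to 5.43). Ednrb had 1517 and 4534 counts and was 3.81-fold lower (3.59 to 4.04). Edn1 had 469 and 816 counts and was 2.22-fold lower (1.98 to 2.49). Ednra, with 1112 and 1661 counts, lay just inside the threshold at 1.90-fold lower (1.76 to 2.06), and the intervals of Edn1 and Ednra both cross 2-fold. Of the genes within 2-fold, Adm had 282 counts in replicate 2 and 141 in replicate 1 and was 1.57-fold higher (1.28 to 1.94). Apln had a ratio of 1.01 (0.909 to 1.13) and Aplnr a ratio of 1.12 (1.00 to 1.25), and both intervals reach 1.

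**Figure D2:**
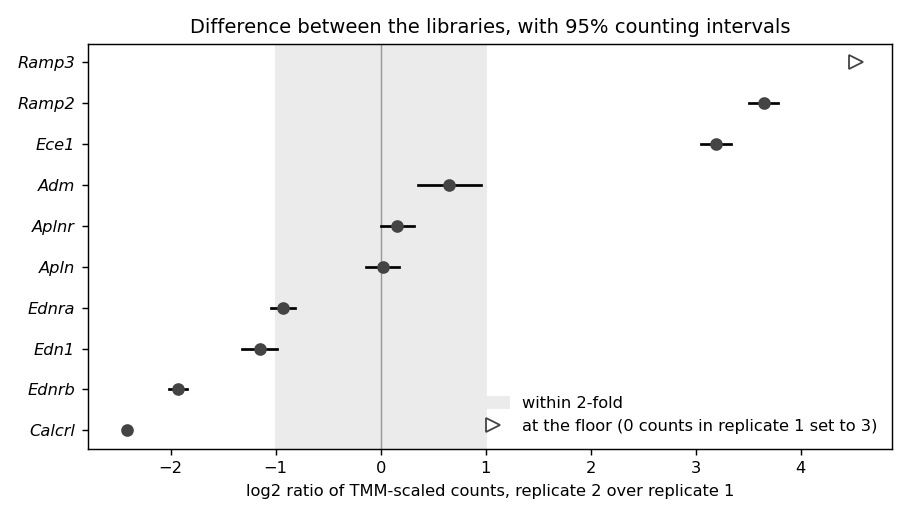
Log2 ratio of TMM-scaled counts, replicate 2 over replicate 1, for the 10 genes, with exact 95% counting intervals as lines and the range within 2-fold shaded. Ramp3 is drawn at its floor of 4.52, with no interval, and Calcrl is lowest at -2.41.

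The ratios followed the base composition of the transcripts. By mean GC content over annotated transcripts the 10 genes ran from Calcrl at 38.7% to Ece1 at 59.1%, and the rank correlation of ratio with GC content was 0.95 over these 10 genes and 0.82 over 14067 tested genes. Genes are not replicates, and all points share the same libraries. Calcrl fell in the lowest GC decile of tested genes, where 92.0% of genes were over 2-fold lower in replicate 2. Ramp2 and Adm fell in decile 8, where 75.5% were over 2-fold higher, though Adm stayed within 2-fold. The mean for Adm, 54.5%, includes a transcript of 376 bases with 58.2% GC and 0 counts in both libraries. Adm-201, which held all counts of the gene, had 50.7% GC. Ramp3 fell in decile 9, where 88.1% were over 2-fold higher, and Ece1 in decile 10, where 91.5% were. Apln, in decile 6, and Aplnr, in decile 5, had 52.1% and 49.6% GC.

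With a smooth trend on GC content subtracted, 4 of the 10 genes were over 2-fold apart, where 43.1% of 14067 genes were. Ramp3, at 1.56 from its floor, was on the higher side and 3 genes were on the lower side. Calcrl moved to a log2 ratio of -0.26, Ednrb to -0.65, Edn1 to -0.29 and Ednra to -0.54, and Ramp2 to 0.70. The 3 genes lower were then Ece1 at -1.40, Adm at -1.64 and Apln at -1.11. With the trend on the most AT-rich windows subtracted, Ece1 was over 2-fold lower at -2.35 and Edn1 changed sides to 0.60, and 36.6% of all genes were over 2-fold apart. Ramp3 has no call there: it was at -0.10 from its floor and at 2.50 with its 0 replaced by the prior count. With GC content weighted by transcript abundance and Ramp3 at its floor, 3 of the 10 genes were over 2-fold apart with the GC trend subtracted, where 34.1% of all genes were, and 2 with the window trend, where 24.4% were. GC content moved with the ratio here, and its part in the difference was not tested beyond these trends.

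**Figure D3:**
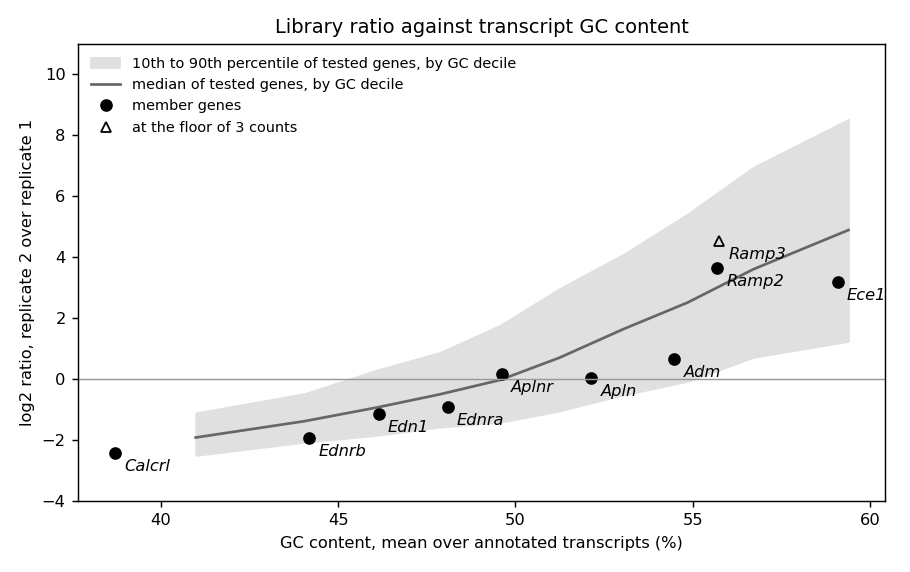
Log2 ratio, replicate 2 over replicate 1, against GC content as the mean over annotated transcripts in percent, for the 10 genes (points, Ramp3 as a triangle at its floor) over the median and the 10th to 90th percentile of tested genes in each GC decile. The line rises from a median of -1.92 in the lowest decile to 4.89 in the highest, and the genes run the same way, from Calcrl at the left to Ramp2, Ramp3 and Ece1 at the right.

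The composition can be read from the coding sequences. For the 5 genes furthest apart between the libraries, the most AT-rich stretch of 90 coding bases is shown, found by the same rule, with G and C in capitals. The coordinates span an intron in each case. These stretches hold 30% GC in Calcrl, 36.7% in Ednrb, 42.2% in Ece1, 44.4% in Ramp2 and 47.8% in Ramp3.
Calcrl (chr2:84351236-84368566, minus strand): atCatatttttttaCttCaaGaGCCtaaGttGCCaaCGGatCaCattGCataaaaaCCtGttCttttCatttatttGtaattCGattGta
Ednrb (chr14:103823183-103823404, minus strand): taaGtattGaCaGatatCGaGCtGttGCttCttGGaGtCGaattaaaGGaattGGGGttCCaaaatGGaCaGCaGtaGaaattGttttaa
Ece1 (chr4:137948612-137949493, plus strand): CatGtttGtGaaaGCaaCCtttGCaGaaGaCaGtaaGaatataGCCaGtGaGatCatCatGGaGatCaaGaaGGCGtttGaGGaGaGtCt
Ramp2 (chr11:101247133-101247663, plus strand): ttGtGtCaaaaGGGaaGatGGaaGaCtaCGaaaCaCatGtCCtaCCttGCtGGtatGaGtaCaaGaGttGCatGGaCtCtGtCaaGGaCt
Ramp3 (chr11:6674827-6676503, plus strand): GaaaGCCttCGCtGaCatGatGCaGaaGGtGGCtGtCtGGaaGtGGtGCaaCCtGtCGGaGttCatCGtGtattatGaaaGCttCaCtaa

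The untranslated parts differed more. The 3′ untranslated region had 33.5% GC in Calcrl and 39.0% in Ednrb, against 47.6% in Ramp2, 53.1% in Ece1 and 55.4% in Ramp3. Apln and Aplnr, which differed least between the libraries, had 49.0% and 47.7% there, above Ramp2. The 5′ untranslated region had 44.6% in Calcrl, 57.3% in Ednrb, 70.3% in Ramp2, 64.1% in Ece1 and 55.8% in Ramp3. In that region Ednrb was thus above Ramp3. Along Calcrl the windows of 180 bases ran from 23.3% to 57.8% GC, and along Ramp3 from 51.7% to 62.2%. Edn1, at 41.5% GC in its 3′ untranslated region and 50.7% in its coding sequence, had windows down to 22.8%. These values are for the M21 model of Edn1, of 2139 bases, whereas the model quantified had 2344.

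**Figure D4:**
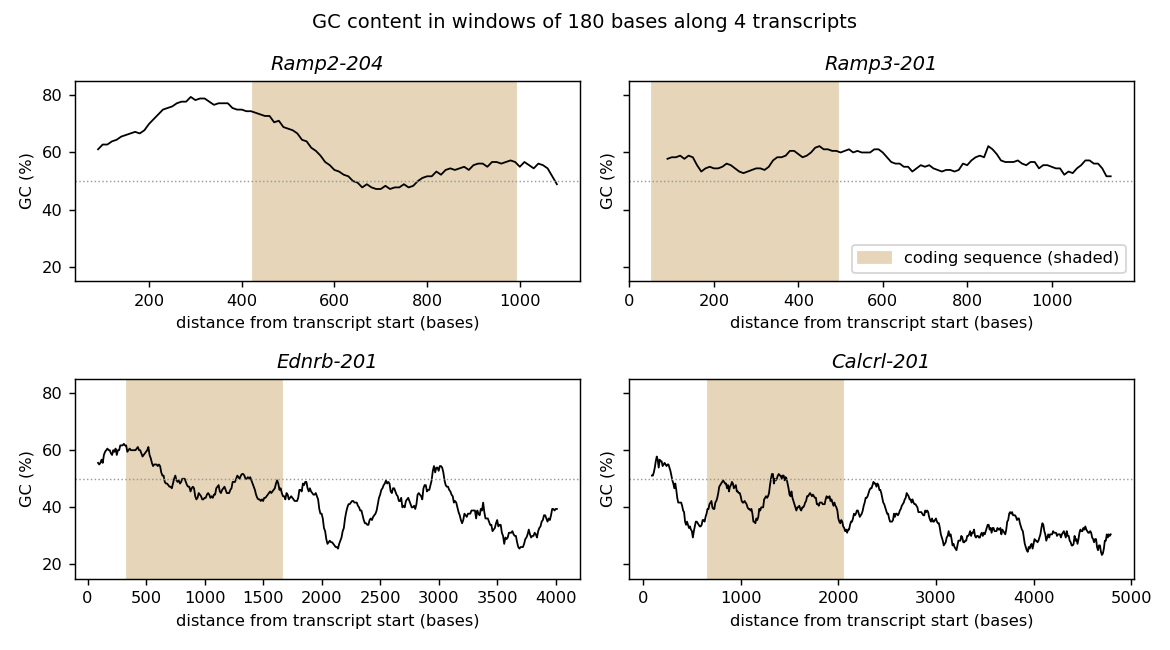
GC content in percent in windows of 180 bases along the coding transcripts of Ramp2, Ramp3, Ednrb and Calcrl, against the distance from the transcript start in bases, with the coding sequence shaded and 50% dotted. Ramp2 peaks at 79.4% before and at the start of its coding sequence, and Calcrl lies mostly below 50%.

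The tables list 28 transcripts of the 10 genes. Edn1 and Apln have 1 transcript each, and in Ednra the main transcript held 98.5% of the gene's TPM in replicate 2 and 98.8% in replicate 1. In Ramp2, Calcrl, Ednrb, Ece1 and Aplnr the shares were divided or moved with the library.

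Ramp2 had its highest share in a transcript with no annotated coding sequence. ENSMUST00000138229.1, annotated as a retained intron, held 53.6% of the gene's TPM in replicate 2 and 89.4% in replicate 1. ENSMUST00000129680.3, the transcript with the longest coding sequence, held 35.3% in replicate 2 and 3.55% in replicate 1, at 224 and 2.45 TPM. By expected counts it had 47.5% of the gene in replicate 2 and 5.89% in replicate 1. The transcripts share 633 bases of exons 2 to 4, with 50.9% GC, and differ at the start. The coding transcript begins with an exon of 545 bases and 70.8% GC (chromosome 11, 101246028 to 101246572). The retained-intron transcript has in its place 122 bases of intron 1 with 48.4% GC. The coding transcript is shown from its start codon to the end of its first exon, and the other over its intronic bases, with G and C in capitals, since these stretches tell the transcripts apart.
Ramp2, coding transcript (chr11:101246452-101246572, plus strand): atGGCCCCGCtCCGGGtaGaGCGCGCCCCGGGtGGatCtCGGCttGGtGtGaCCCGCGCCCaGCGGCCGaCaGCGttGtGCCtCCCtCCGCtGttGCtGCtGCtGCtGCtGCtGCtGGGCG
Ramp2, retained-intron transcript (chr11:101246933-101247054, plus strand): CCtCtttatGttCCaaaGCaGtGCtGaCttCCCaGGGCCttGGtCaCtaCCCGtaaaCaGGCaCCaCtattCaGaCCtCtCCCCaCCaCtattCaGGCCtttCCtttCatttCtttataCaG

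The transcript with the GC-rich first exon held a smaller share of Ramp2 in replicate 1, where it had 27.4 expected counts. This describes only the transcripts shown, and a part of GC content in it was not tested. Which RNA was present in the tissue was not tested either. Ramp2 also overlaps Vps25 on the same strand, which was at 112 TPM in replicate 2, against 77.5 TPM in replicate 1. Its expected count in replicate 2, 7406.18, was the only count of the 10 genes in either library farther than 0.005 from a whole number.

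Calcrl RNA was split between Calcrl-201, with 47.2% of the gene's TPM in replicate 2 and 44.1% in replicate 1, and Calcrl-202, with 42.8% and 48.2%. They carry an identical coding sequence of 1389 bases. By expected counts the first led in both libraries, with 57.3% in replicate 2 and 52.8% in replicate 1, against 41.9% and 46.6% for the second. Calcrl-202 has 0 bases that are not also in Calcrl-201. In Ednrb, Ednrb-201 held 78.4% in replicate 2 and 99.0% in replicate 1 and Ednrb-202 held 21.7% and 0.98%. Both encode the same 1326 coding bases. In the M21 models, the bases that tell them apart, 277 and 159 with 58.1% and 57.9% GC, hold no coding sequence. Ednrb-201 has 4107 bases there but 3878 as quantified, so the bases that separated the deposited shares may be others.

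Ece1 and Aplnr show how a few reads on a short model move TPM. A model of Ece1 of 172 bases (ENSMUST00000130407.1) had 5 counts in replicate 2 and 0 in replicate 1, yet held 18.3% of the gene's TPM in replicate 2, or 14.9 TPM. By expected counts the transcript of 4816 bases held 99.8% in replicate 2 and 100% in replicate 1. Without models under 400 bases Ece1 was at 66.2 TPM in replicate 2, against 7.95 TPM in replicate 1. Aplnr-202, of 313 bases, had 4.43 counts and 13.1% of its gene's TPM in replicate 2, and without it Aplnr was at 13.9 TPM in both libraries.

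**Figure D5:**
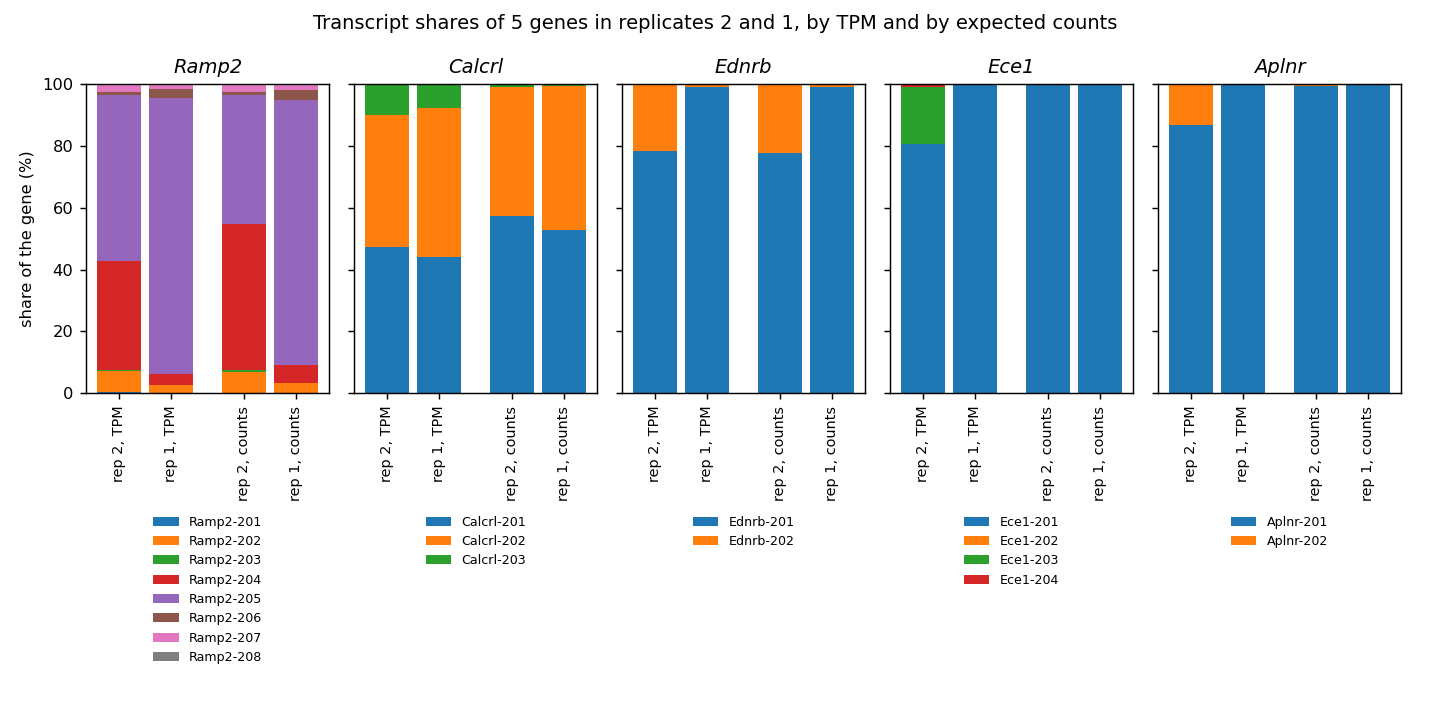
Share in percent of each transcript of Ramp2, Calcrl, Ednrb, Ece1 and Aplnr in replicates 2 and 1, by TPM (left pair of bars) and by expected counts (right pair). The coding transcript of Ramp2 (red) takes 35.3% of TPM in replicate 2 and 3.55% in replicate 1, and the short models of Ece1 and Aplnr are visible by TPM but not by counts.

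Of 30 other genes listed for these pathways, 20 reached a TPM of 1 in both libraries and 5 in neither, namely Edn2, Adm2, Iapp, Apela and Calcr. Of the 25 whose TPM averaged 1 or more, 10 stood more than 2-fold higher in replicate 2, 8 stood more than 2-fold lower and 7 stayed inside that range, with a median log2 ratio of 0.28. These shares lie close to the 39.3% higher and 28.2% lower over all tested genes. Among processing genes, Pam, whose product amidates adrenomedullin, was at 126 TPM in replicate 2, against 155 TPM in replicate 1. Mme, a peptidase that degrades these peptides, was at 20.3 and 92.3 TPM. Furin, a convertase that cuts precursors at basic sites, was at 27.5 TPM in replicate 2, against 1.35 TPM in replicate 1.

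Among the signal carriers, Gnas, the stimulatory G protein through which Calcrl acts, was at 472 TPM in replicate 2, against 505 TPM in replicate 1. Gnaq and Gna11 encode related G proteins used by the endothelin receptors. Gnaq was at 20.1 TPM in replicate 2, against 43.5 TPM in replicate 1, and Gna11 at 33.4 and 0.66 TPM. Nos3, the endothelial nitric oxide synthase gene, was at 5.36 TPM in replicate 2, against 0.52 TPM in replicate 1, and the kinase gene Rock1 at 15.7 and 99.8 TPM. Gnaq and Gna11 thus stood in opposite orders in the libraries.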

How the data were processed

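Polyadenylated RNA of 1 lung was sequenced in 2 libraries, and the labels make them technical replicates of 1 biological replicate. Nothing in the labels says whether they share an RNA extraction. Per the file headers, expected counts are what the authors estimated for each gene and transcript, on mm10 with annotation release M4 per the deposited file descriptions. The aligner and quantifier, and whether counting used strand, were not given in the sources used here. TPM and FPKM were deposited by the authors as usual estimates and posterior means, and the share of a gene's TPM held by a transcript was deposited as a percent.

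Gene symbols, coordinates and reference transcripts were taken from GENCODE M21, built on GRCm38, which is mm10 under another name. By identifier 42462 of 43346 genes matched, all 10 members among them, and 24 of the 28 member transcripts kept the same length. Edn1-201 had 2344 bases as quantified and 2139 in M21, Ednrb-201 3878 and 4107, and Adm-201 1381 and 1390. A second Adm model had no M21 sequence. GC values are those of the M21 models. Counts were rounded, scaled with TMM (edgeR 4.0.16, R 4.3.3, factors 1.10 in replicate 2 and 0.913 in replicate 1), and log2 ratios took a prior of 0.5 counts over genes whose TPM averaged 1 or more. Ratio intervals are Clopper-Pearson at 95% and, like the floor of 3 counts, cover only counting error, since no molecular identifiers are named in the labels and reads may repeat a molecule. GC trends were lowess fits with a span of 0.3, on GC content averaged over a gene's transcripts or on the 10th percentile of windows of 180 bases in steps of 10. The ratio step was tested on simulated counts in which few genes differed between the libraries. In the data 67.5% of tested genes were over 2-fold apart, so the simulation does not show that the scaling holds here. DESeq2 1.42.0 size factors were an alternative. Python 3.11.15, pandas 2.3.3, scipy 1.17.1 and statsmodels 0.14.6 were used. Members, lists and tests were chosen with earlier results of these data known. Named genes are the members, and listed pathway genes at a TPM of 1 in either library or needed as a paralog, and none was named for a similar pattern, since 2 libraries define none. The markers Foxj1, Cldn5 and Tek and the overlapping gene Vps25 were named after their values were seen. Antisense or overlapping genes are annotated at Ece1, Adm, Ednra, Ramp3, Edn1 and Ramp2. Protein sequences were not used here. Some listed genes are counted but withheld, and their values are not reported here.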

Additional observations from a re-analysis of the deposited data

How the results depend on the processing

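The count of members over 2-fold apart was 5 to 7 when scaled by total counts or DESeq2 size factors, by TPM ratio, with a prior of 5 counts, at a mean TPM of at least 10 or with no filter, and 4 with the GC trend subtracted or at a 4-fold threshold. It was 2 with the GC window trend subtracted. Weighting GC content by transcript abundance, chosen after seeing the data, gave 3 under either trend. With Ramp3 at its floor in place of the prior count the window trends gave 1 and 2. Over all genes 9543 were over 2-fold apart, against 6060 with the GC trend and 5144 with the window trend subtracted, 4795 and 3435 with the abundance-weighted trends, 5250 at a mean TPM of at least 10, 14364 with no filter and 5138 at 4-fold. As shares, the filters hardly moved it (68.2% of 7696 and 69.8% of 20567, against 67.5%), whereas the trends gave 43.1%, 36.6%, 34.1% and 24.4%. At the 4-fold threshold the share of all tested genes was 36.3%. The split of all genes moved with scaling, to 5988 higher and 3171 lower by total counts and 5242 and 4460 by TPM, with medians of 0.45 and 0.01.

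Ece1 changed direction, to -1.40 and -2.35 with the GC and window trends and to -0.40 and -0.33 with the abundance-weighted ones. Edn1 changed to 0.60 and 0.44 with the window trends. Adm, Apln and Aplnr, within 2-fold before, changed sign under some settings. In the order GC, window, weighted GC and weighted window trend, Adm was at -1.64, -0.14, -0.01 and 1.91. In that order Apln was at -1.11, 0.50, -1.26 and 0.14, and Aplnr at 0.10, -0.75, -0.43 and -0.41. Apln was also at -0.03 by DESeq2 size factors and -0.13 by TPM ratio. The cause was not tested. Ramp2, Calcrl, Ednrb and Ednra kept their direction under every alternative run, but not the size of their ratio. At the smallest, Calcrl was at -0.13, Ednrb at -0.12, Ednra at -0.27 and Ramp2 at 0.70, all inside 2-fold. Ramp3 at its floor was at -0.10 and -0.90 with the plain and abundance-weighted window trends, and above 0 there only with the prior count. By expected counts the shares were 89.4% for Ramp2, 54.8% for Edn1 and 99.97% for Calcrl, and 99.92% for Calcrl by posterior mean. Leaving out a replicate gave 55.7% to 71.7% for Ednrb, 94.6% to 97.3% for Ramp2, 59.5% to 64.3% for Edn1, and 9 to 10 genes at a TPM of 1. No paired analysis was possible because there is 1 group. With 1 animal, nothing here bears on differences between animals.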

Other observations

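The deposited posterior means gave values where no read was assigned. Ramp3 in replicate 1, with 0 expected counts, had a posterior mean of 0.15 TPM, and it was 5.09 TPM in replicate 2. Adm-201 held 100% of its gene's TPM in both libraries by the usual estimate, but 65.0% in replicate 2 and 64.1% in replicate 1 by the posterior mean, with 32.4% and 31.8% on a second model of 1390 bases that had 0 counts. Ece1 in replicate 1 was at 7.95 TPM by the usual estimate and 12.25 TPM by the posterior mean, where the model of 172 bases held 33.9% with 0 counts.

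Weighted by transcript abundance, the GC content of Ece1 was 56.3%, against 59.1% as the plain mean over its transcripts, 2 of which are GC-rich fragments of 172 and 728 bases with 63.4% and 64.0% GC. For Adm the values were 50.7% and 54.5%. With the weighted trend subtracted, the log2 ratio of Adm was -0.01, against -1.64 with the plain one. With the window trends it was 1.91 weighted, over 2-fold higher in replicate 2, against -0.14 plain. This comparison was chosen after seeing the data.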
